A study of Mus musculus with 71 samples.

Results

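The comparison described here sets microglia sorted without signal from an Spp1 reporter, taken from the brains of mice with experimental autoimmune encephalomyelitis (EAE), against microglia of healthy mice. EAE is an autoimmune inflammation of the central nervous system driven by T cells against myelin, and Spp1 encodes osteopontin, a secreted glycoprotein. Of the 71 samples of the series, 6 were used: 3 GFP-negative libraries and 3 control libraries, each made from 2000 sorted cells. The members are the genes that reached 1 TPM (transcripts per 1e6 of the library's total) in at least 3 of the 9 columns of the EAE table, which kept 13513 of 55413 genes. The controls were WT mice with no disease entry. The GFP-negative cells came from Spp1-GFP heterozygous mice with EAE that had recovered to clinical score 1-2, and both groups were 8-10 week old brain samples. The GFP-positive cells with the same genotype, disease entry and age (3 libraries) are given beside some genes. The GFP-negative cells differ from the controls in disease, in reporter genotype and in gate, and the shares of these cannot be told apart. The sources used here do not give the inducing agent, the strain, the sex or the antibodies of the bulk sort. Nothing there says that the libraries of a group came from separate animals, so the p-values measure the spread between libraries, which may be technical. The series asks how varied microglial reactivity is between disorders and whether a common signature exists.

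Microglia are the resident macrophages of the brain. At rest they express P2ry12, Tmem119, Cx3cr1 and other homeostatic genes, which depend on TGF-beta. Interferon-gamma, which T cells release in EAE, induces Ciita, the master regulator of MHC class II genes, together with families of GTPases that attack pathogen vacuoles. Type I interferons act through factors such as Stat2 and Irf9 on the interferon-stimulated response element (ISRE). In neurodegeneration and demyelination microglia also take on a disease-associated state, marked by Apoe, Cst7 and Clec7a and in part dependent on the lipid receptor Trem2.

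GFP-negative microglia of EAE mice carried far more transcript of antigen presentation, interferon response and chemokine genes than control microglia. The same held for some complement genes, though not for the abundant C1q genes, and most homeostatic genes were lower. With a limma fit on log2(TPM + 1) and Benjamini-Hochberg adjustment over all tested genes, 4099 genes were called at an adjusted p below 0.05, which is 30.3% of those tested. Of these, 794 rose (5.88% of tested genes) and 3305 fell (24.5%). The GFP-negative and control groups did not overlap in 6453 of the 13513 tested genes (47.8%), among them 787 of the 794 that rose and 3279 of the 3305 that fell. The rises were larger: 229 genes rose by more than 2 on the log2 scale and 128 fell by more than 2. Among the called genes, 74 that rose were listed at 0 in every control library, and such a gene is given below without a fold. Of the tested genes, 10 passed the TPM minimum through the GFP-negative columns only and 96 through the control columns only. A few mitochondrial genes that all cells use, such as mt-Co3, were also listed at 0 in some libraries, so a 0 here is not proof of absence.

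The direction of small changes depended on the scale. TPM gives each library the same total, and the abundant genes took a larger share in the EAE libraries: the top 50 genes held 29.7 to 30.2% of TPM in controls and 33.2 to 40.2% in GFP-negative libraries. The median of all tested genes stood at a log2 difference of -0.47. After rescaling by median-of-ratios size factors, which moves that median to -0.01, 1852 genes were called (13.7%), with 1244 rising (9.21%) and 608 falling (4.5%). The share of rises among the calls went from 19.4% to 67.2%. Of the genes called as deposited, 784 rose and 608 fell on both scales, and 0 genes that fell as deposited rose after rescaling. Below, "rose" and "fell" refer to the TPM as deposited, and a call lost after rescaling is named as such. GFP-negative library 1 stood apart from the other EAE libraries: its median gene lay 0.71 below the control mean on the log2 scale, against 0.29 and 0.38 for libraries 2 and 3. Its Spearman correlations with the single control libraries averaged 0.868, against 0.909 and 0.905. Without it, 3728 genes were called (27.9% of 13356; 908 rose, 6.8%, and 2820 fell, 21.1%), and 3327 genes were called both ways. Mitochondrial genes took 2.2 to 2.8% of TPM in controls, 5.19% in GFP-negative library 1, and 3.76 and 3.93% in libraries 2 and 3. Leaving the mitochondrial genes out and scaling the rest to the same total gave 3793 calls, 801 rising and 2992 falling. The shift of the median also went with the length of the longest annotated transcript: over equal bins of genes by length it ran from -0.17 in the shortest bin to -0.69 in the longest, and the part of length in the falls was not tested.

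**Figure D1:**
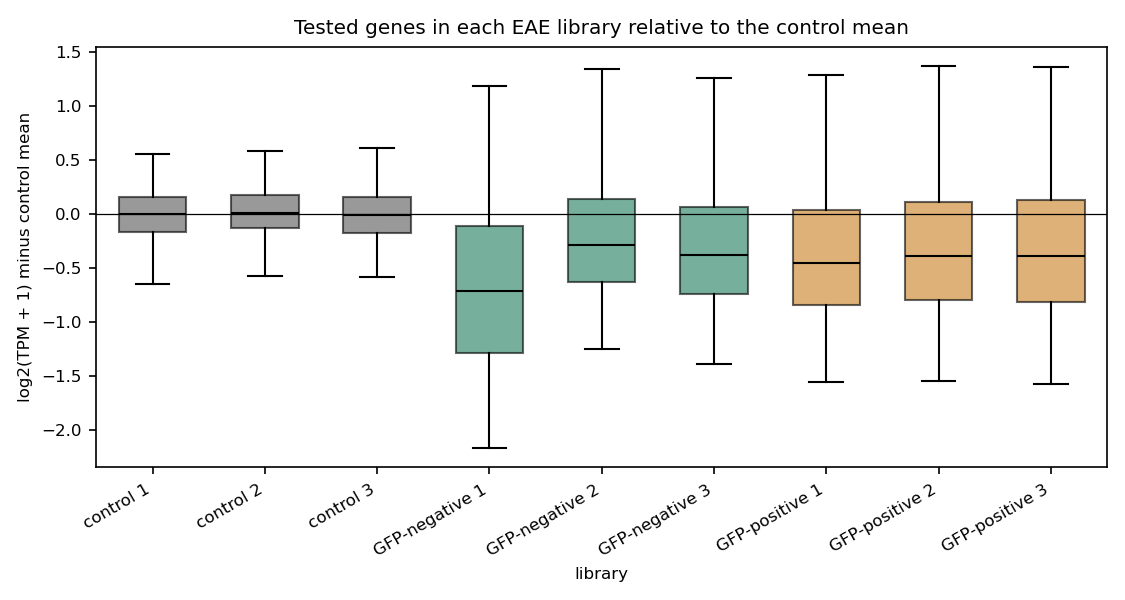
Spread of each library's log2(TPM + 1) around the control mean, over the 13513 tested genes, for the 3 control, 3 GFP-negative and 3 GFP-positive libraries. Boxes are quartiles and whiskers the 5th to 95th percentiles; the median sits lowest in GFP-negative library 1, at -0.71, and near 0 in the controls.

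The labelled cell type was checked against its markers. The 7 defining microglial genes P2ry12, Tmem119, Fcrls, Cx3cr1, Siglech, Sall1 and Csf1r summed to 25378 to 26854 TPM in controls and to 8678 to 12023 TPM in GFP-negative libraries, so both groups express them at high level and the EAE cells at a lower one. In bulk samples, fewer cells of a type and less RNA of it per cell cannot be told apart. Of 18 markers of monocyte-derived cells, 10 were tested and 5 rose, and the summed level of the list was 20.4 to 21.5 TPM in controls and 79.6 to 166 TPM in GFP-negative libraries. The monocyte gene Plac8 stood at 1.81, 0 and 0.8 TPM in controls and at 39.8, 66.2 and 26.9 TPM in GFP-negative libraries, a rise by 4.63 on the log2 scale (SE 0.60, adjusted p = 0.000438, limma). Ly6c2 was listed at 0 in the controls and at 0, 8.74 and 4.04 TPM in the GFP-negative libraries, which was not called (adjusted p = 0.0899, limma), and Ccr2, the monocyte chemokine receptor, did not exceed 7.88 TPM.

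Markers of border-associated macrophages summed to 495 to 625 TPM in controls and 140 to 199 TPM in GFP-negative libraries. In that list 4 of 8 tested genes rose and 1 fell, against 2 and 1 of 7 without GFP-negative library 1. The rises of Folr2 (adjusted p = 0.0334) and Siglec1 (adjusted p = 0.035) were lost under several settings, for example without control 2 (adjusted p = 0.11 and 0.115). The other genes of the list that rose were Mgl2 and Ms4a7, by 2.75 and 2.23. Cd163 and Lyve1, also on that list, were listed at 0 in all 6 libraries. The gene that fell was Stab1, a scavenger receptor, at 566, 482 and 613 TPM in controls and 118, 173 and 141 TPM in GFP-negative libraries. Dendritic cell markers summed to 249 to 273 TPM in controls and 67.8 to 151 TPM in GFP-negative libraries. Most of the control sum was Fscn1, whose values are given below. Of 8 tested, 3 rose and 1, Fscn1, fell, with the same counts after rescaling. The lectins Clec10a and Cd209a rose from 1.57 TPM or less to between 5.09 and 14.9 TPM. Flt3 rose by 1.40, a call lost without control 1 (adjusted p = 0.0779, limma). Of 13 neutrophil genes, 8 were listed at 0 in all 6 libraries, S100a8, Ly6g and Mpo among them. T cell markers summed to 35.4 to 48.8 TPM in controls and 24.5 to 63.5 TPM in GFP-negative libraries. Of 6 tested, 1 rose (Cd5, by 2.175) and 1 fell (1 and 0 after rescaling), against 3 and 1 without GFP-negative library 1. Ifng and Il17a were listed at 0 throughout, and Cd3e at 0, 4.31 and 1.46 TPM in the GFP-negative libraries. NK cell markers summed to 3.69 to 9.20 TPM in controls and 4.87 to 47.2 TPM in GFP-negative libraries. B cell markers summed to 376.5 to 424.8 TPM in controls and 241.5 to 275.4 TPM in GFP-negative libraries. All 3 of them that were tested fell as deposited and 0 after rescaling, and Igkc was listed at 0 in all 6 libraries. The part of other cells in the results below was not tested.

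Genes of antigen presentation by MHC class II were among the largest rises of the comparison. Class II molecules present peptides to CD4 T cells, and H2-Aa and H2-Ab1 encode the chains of I-A, H2-Eb1 the beta chain of I-E and Cd74 the invariant chain that escorts them. H2-Aa (17:34282744-34287823, minus strand, GRCm38) stood at 0.43, 3.56 and 38.4 TPM in controls 1 to 3 and at 2475, 1755 and 2074 TPM in GFP-negative libraries 1 to 3. The groups lay far apart, and control 3 was the highest control for each of the 4 genes. The log2 difference of H2-Aa was 8.36 (SE 0.88, adjusted p = 0.000116, limma), the largest among the named rises. H2-Eb1 went from 2.83, 2.51 and 43.2 TPM to 1855, 1534 and 1787 TPM, a log2 difference of 7.68 (SE 0.75, adjusted p = 7.13e-05). H2-Ab1 went from 17.2, 22.5 and 82.8 TPM to 3817, 3128 and 3271 TPM, a log2 difference of 6.68 (SE 0.43, adjusted p = 3.59e-06). Cd74 showed a similar picture, with 41.8, 30.5 and 96.0 TPM in controls, 4579, 4610 and 5535 TPM in GFP-negative cells and a log2 difference of 6.59 (SE 0.31, adjusted p = 4.05e-07). Ciita itself was near 0 in controls (0.13, 0 and 0.13 TPM) and reached 9.67, 20.5 and 13.2 TPM (adjusted p = 3.09e-05).

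Of 13 class II genes on the list, 12 were tested, 10 rose and 1 fell, with a median log2 difference of 0.96 (1.5 after rescaling) against -0.47 for all genes. The counts were the same without GFP-negative library 1. Ctss, the cathepsin that trims the invariant chain, rose by 0.83 (adjusted p = 9.11e-05) from a high base of 13515 to 15045 TPM. The peptide exchange genes rose less, by 0.55 and 0.52: H2-DMa was at 500 to 541 TPM in controls and 712 to 882 TPM in GFP-negative cells, and H2-DMb1 at 200 to 235 TPM and 260 to 362 TPM. H2-DMb2 was not called, at 31.1 to 31.3 TPM and 29.9 to 41.5 TPM. H2-Ob, part of the inhibitor of H2-DM, was lower at 60.7 to 80.5 TPM against 100 to 120 TPM, and its call was lost after rescaling (adjusted p = 0.559).

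Class II promoters carry a conserved Y box bound by NF-Y. The promoters of H2-Aa and H2-Eb1 are shown because these genes had the largest rises. Both are RefSeq windows of 250 bases before to 50 after the start site, build GRCm38.p6, written 5′ to 3′ along the gene, with the Y box letters in capitals (CTGATTGG, searched on both strands). H2-Aa lies at chr17:34287774-34288073 on the minus strand, with the match 51 bases before the start site, and H2-Eb1 at chr17:34305617-34305916 on the plus strand, with the match 62 bases before it.
H2-Aa: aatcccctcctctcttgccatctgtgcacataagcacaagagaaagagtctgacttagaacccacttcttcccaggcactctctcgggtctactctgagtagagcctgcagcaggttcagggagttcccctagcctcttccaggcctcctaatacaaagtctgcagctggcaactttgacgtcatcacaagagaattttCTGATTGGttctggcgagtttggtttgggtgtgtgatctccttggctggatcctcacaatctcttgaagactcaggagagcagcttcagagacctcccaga
H2-Eb1: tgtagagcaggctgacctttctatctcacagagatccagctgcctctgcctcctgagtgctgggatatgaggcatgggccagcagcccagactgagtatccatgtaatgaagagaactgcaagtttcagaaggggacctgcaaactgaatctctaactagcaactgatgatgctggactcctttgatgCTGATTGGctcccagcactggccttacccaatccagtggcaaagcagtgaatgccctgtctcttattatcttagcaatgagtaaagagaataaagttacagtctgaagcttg
These letters occurred in 4 of the 10 class II genes with a promoter entry, in 5 of 9 class I genes, and in 4.7% of all 27025 genes with an entry (7.04% of tested genes). A match is a description of the window and not a bound site.

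MHC class I and its peptide supply rose too. Class I molecules present cytosolic peptides to CD8 T cells. H2-K1 (17:33996017-34000347, minus strand) went from 776, 767 and 720.5 TPM in controls to 8050, 6816 and 6891 TPM in GFP-negative cells. H2-D1 went from 716, 665 and 652 TPM to 6177, 5728 and 5901 TPM. For both, every GFP-negative library was far above every control, and the spread within a group was small: the log2 differences were 3.26 (SE 0.08, adjusted p = 4.6e-09) and 3.13 (SE 0.07, adjusted p = 2.74e-09). B2m, the shared light chain, was at 4619 to 5475 TPM and 16694 to 23302 TPM, a log2 difference of 1.91 (adjusted p = 2.33e-06). The non-classical genes H2-Q6 and H2-Q7 rose by 5.63 and 7.19, and H2-Q5 by 6.09, but these genes are close copies, so their split rests on how RSEM shared reads between them. Of 13 class I genes on the list, 12 rose and 0 fell (13 and 0 after rescaling), with a median log2 difference of 2.57. Nlrc5, the class I transactivator, chosen after its values were seen, was at 3.6 to 8.49 TPM in controls and 52.1 to 108 TPM in GFP-negative cells.

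Among genes that make and load class I peptides, 7 of 13 rose and 1 fell (9 and 0 after rescaling). Tap1, which pumps peptides into the endoplasmic reticulum, stood at 52.1, 43.5 and 61.2 TPM in controls and at 220, 309 and 324 TPM in GFP-negative cells (adjusted p = 7.04e-06). The immunoproteasome subunits Psmb9 and Psmb8 rose by 1.79 and 1.33, and the activator subunit Psme1 by 1.01. Tapbp, the bridge to the loading complex, rose by 0.35 (adjusted p = 0.0212), a call lost without any 1 of the controls (adjusted p = 0.0556 to 0.064). Pdia3, a chaperone of class I folding, fell by 0.38 as deposited and stood at +0.16 after rescaling (adjusted p = 0.467), so its direction depends on the scale.

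**Figure D2:**
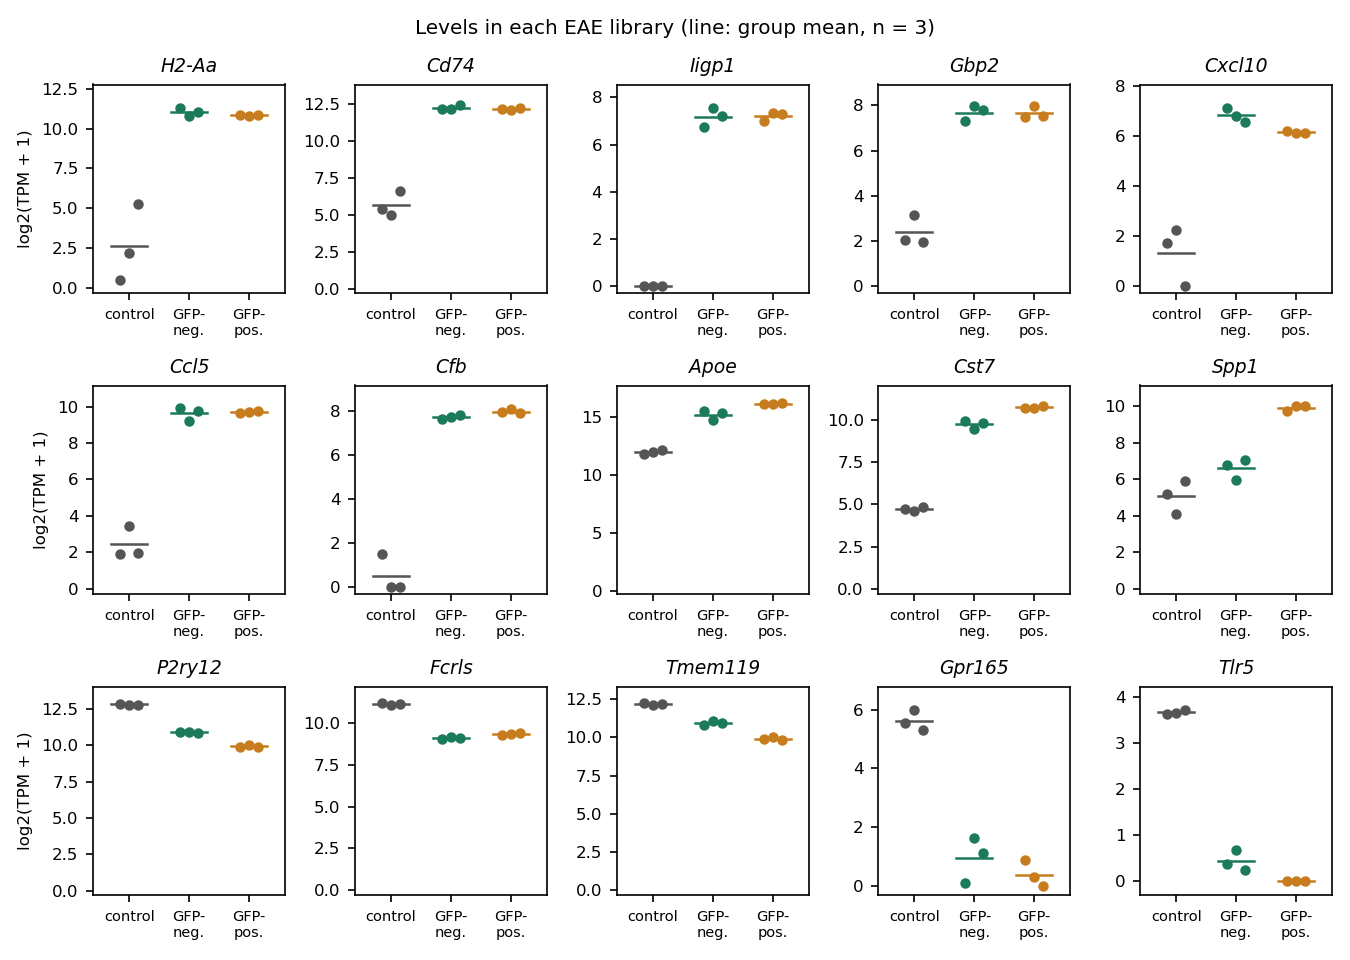
Expression of 15 genes as log2(TPM + 1), 1 point per library and a line at each group mean, for control, GFP-negative and GFP-positive microglia (3 libraries each). H2-Aa climbs from 0.43 to 38.4 TPM in controls to over 1755 TPM in GFP-negative cells, while P2ry12, Fcrls, Tmem119, Gpr165 and Tlr5 lie below the controls.

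Nearly all genes of the type I interferon response rose. Of 36 interferon-stimulated genes, 32 rose and 0 fell, with a median log2 difference of 2.93, and 35 rose after rescaling, when the median was 3.46. Leaving out GFP-negative library 1, 35 rose. Ifi27l2a, an interferon-induced mitochondrial protein, went from 35, 55.4 and 45.1 TPM in controls to 1558, 1288 and 1401 TPM (log2 difference 4.96, SE 0.15, adjusted p = 1.87e-08). Ifitm3, a barrier to virus entry, went from 36.6, 29.3 and 29.3 TPM to 912, 730 and 660 TPM (4.55, SE 0.14, adjusted p = 1.87e-08). Irf7, the factor that amplifies the response, went from 18.6, 22.1 and 19.0 TPM to 206, 281 and 257 TPM (adjusted p = 1.74e-07). None of the 3 showed overlap between groups. Oasl2 and Oas1a, of the 2′-5′ oligoadenylate synthetase family, rose by 4.73 and 3.15, and Rtp4 by 2.92.

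A few members differed from the rest. Irf9, the DNA-binding partner of Stat2, was at 95.3 to 117 TPM in controls and 107 to 139 TPM in GFP-negative cells and was not called (adjusted p = 0.326). The RNA sensors Ifih1 and Ddx58 were also not called, and both had their lowest GFP-negative value in library 1 (14.4 and 33.5 TPM, against 39.8 or more in libraries 2 and 3). Ifit2 showed the same pattern, at 24.4 TPM in library 1 and 189 and 138 TPM in libraries 2 and 3, against 5.6 to 9.49 TPM in controls. Of the interferon genes, Ifi27l2a and Rtp4 were lower in GFP-positive than in GFP-negative cells, by 0.85 (adjusted p = 0.0394) and 0.77 (adjusted p = 0.03).

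The interferon-gamma inducible GTPases rose with them: 14 of 16 rose and 0 fell, with a median log2 difference of 3.03 (3.39 after rescaling). These immunity-related GTPases and guanylate-binding proteins act at the membranes of vacuoles that hold microbes. Iigp1 was listed at 0 in all 3 controls and stood at 105, 185 and 147 TPM in GFP-negative cells (adjusted p = 1.87e-08). Tgtp2 went from 2.14, 1.98 and 1.05 TPM to 207, 191 and 172 TPM, and Gbp2 (3:142620602-142638008, plus strand) from 3.12, 7.91 and 2.89 TPM to 155, 248 and 221 TPM. These 3 genes were close to silent in controls and well expressed in each EAE library. The log2 differences were 6.15 for Tgtp2 (adjusted p = 1.9e-08) and 5.29 for Gbp2 (SE 0.31, adjusted p = 1.71e-06). Gbp6 and Gbp8 rose by 5.76 and 4.60, and Ifi47 by 5.05. Irgm2, at 47.8 to 58.1 TPM in controls and 25.3 to 69.1 TPM in GFP-negative cells, and Gvin1 were not called. Tgtp1 and Tgtp2, like several Gbp genes, are close copies whose reads may be split. Further factors of the pathway also rose, Irf1 by 1.49 (adjusted p = 2.54e-05) and Batf2 from 0.34 TPM or less to 10.6 to 12.1 TPM.

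The promoters of Gbp2, Cxcl10 and Isg15 are shown because these genes carry the interferon result and hold the ISRE core, searched on both strands as GAAA, any 2 bases, then GAAA. The windows are RefSeq's, build GRCm38.p6, from 250 bases before to 50 after the start site, with matches in capitals; in Gbp2 it lies on the opposite strand. Cxcl10 also holds a Y box match, which is not in capitals. Gbp2 lies at chr3:142620413-142620712 (plus strand, match 59 bases before the start), Cxcl10 at chr5:92348840-92349139 (minus strand, match 213 bases before the start) and Isg15 at chr4:156200769-156201068 (minus strand). Isg15, an interferon-induced ubiquitin-like protein, holds 3 overlapping matches, which begin 78, 72 and 66 bases before the start.
Gbp2: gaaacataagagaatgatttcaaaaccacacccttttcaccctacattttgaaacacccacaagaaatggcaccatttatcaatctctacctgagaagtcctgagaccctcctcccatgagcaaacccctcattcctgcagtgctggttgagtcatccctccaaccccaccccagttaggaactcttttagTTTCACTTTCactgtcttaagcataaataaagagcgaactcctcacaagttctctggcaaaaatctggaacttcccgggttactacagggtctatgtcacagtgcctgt
Cxcl10: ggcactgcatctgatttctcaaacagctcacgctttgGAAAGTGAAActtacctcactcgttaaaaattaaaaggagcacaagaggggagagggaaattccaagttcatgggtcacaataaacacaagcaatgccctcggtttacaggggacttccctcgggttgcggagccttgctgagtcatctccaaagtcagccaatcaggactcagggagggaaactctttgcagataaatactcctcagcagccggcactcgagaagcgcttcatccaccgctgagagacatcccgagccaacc
Isg15: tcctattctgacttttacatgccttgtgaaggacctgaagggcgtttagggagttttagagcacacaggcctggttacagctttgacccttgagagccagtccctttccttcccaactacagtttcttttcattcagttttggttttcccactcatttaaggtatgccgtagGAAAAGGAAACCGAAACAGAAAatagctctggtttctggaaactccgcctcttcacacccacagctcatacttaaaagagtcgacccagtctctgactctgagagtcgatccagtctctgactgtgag
The core was found in 9 of the 10 GTPase genes with a promoter entry (90.0%) and in 14 of 25 type I interferon genes (56.0%). It occurred in 3.99% of the 27025 genes with an entry and in 3.97% of tested genes. Of 24 disease-associated and 20 homeostatic genes with an entry, 0 held it. The gamma-activated sequence TTCNNNGAA was found in none of the 3 windows shown. It was found in 6 of 10 GTPase genes, against 9.55% of all genes. No match says only that the letters are not in this window.

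**Figure D3:**
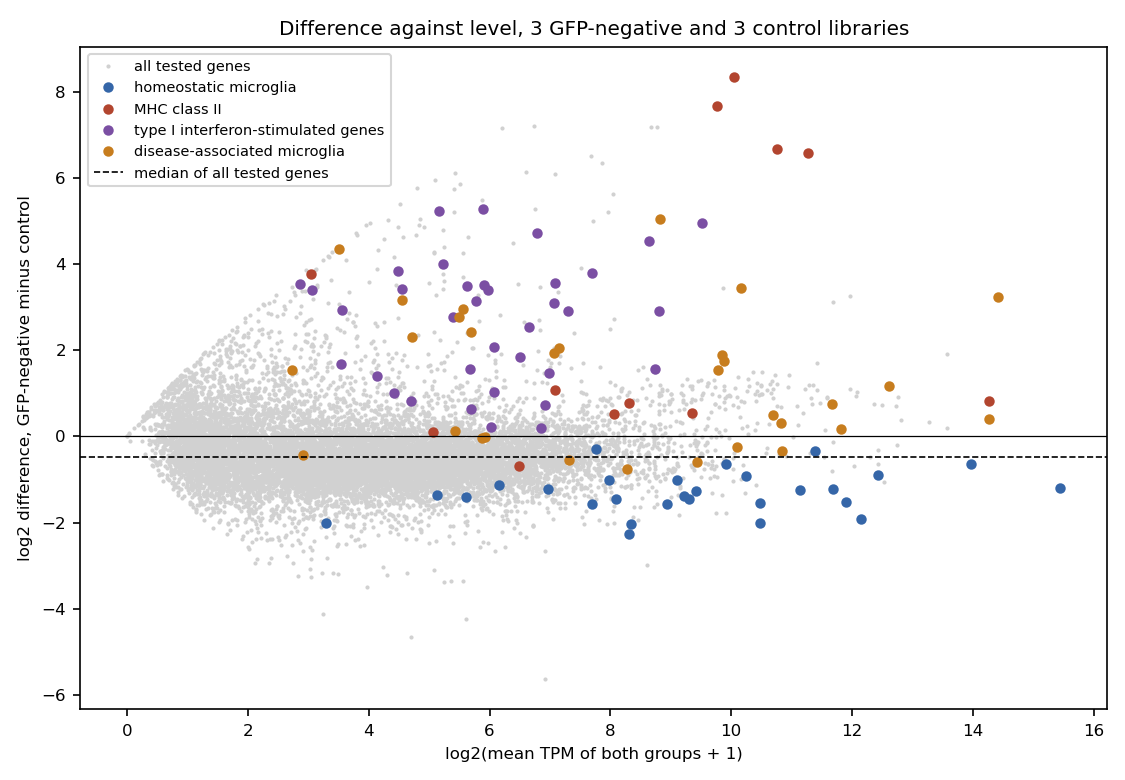
Log2 difference between GFP-negative and control microglia against the log2 of the mean TPM + 1 of both groups, for the 13513 tested genes, with 4 gene lists coloured (homeostatic, MHC class II, type I interferon, disease-associated). The dashed line is the median of all genes at -0.47; interferon genes lie above it (list median 2.93) and homeostatic genes below it (list median -1.31).

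Chemokines followed the interferon genes: 12 of 18 tested rose and 2 fell (11 and 0 after rescaling), with a median log2 difference of 1.96. Ccl5, which draws T cells, went from 2.75, 9.76 and 2.81 TPM in controls to 974, 588 and 860 TPM (log2 difference 7.21, SE 0.36, adjusted p = 5.12e-07). Ccl12 and Ccl2, both ligands of Ccr2 that draw monocytes, went from 189, 148 and 127 TPM to 2096, 1475 and 1567 TPM and from 13.6, 17.5 and 6.93 TPM to 606, 389 and 460 TPM. No library of one group reached into the other for these genes. Their log2 differences were 3.46 (adjusted p = 3.45e-07) and 5.21 (adjusted p = 9.89e-07). Cxcl13, which attracts B cells, was listed at 0 in the controls and stood at 60.0, 27.6 and 43.1 TPM. Of the interferon-inducible ligands of Cxcr3, Cxcl9 went from 0, 0.3 and 0 TPM to 16.9, 16.0 and 13.4 TPM and Cxcl10 from 2.23, 3.7 and 0 TPM to 136, 110.5 and 92.5 TPM. Cxcl10, like Isg15, C1qc and Lpl elsewhere, was chosen after its values were seen. Cxcl16 rose by 1.72. Ccl6 (355.7 to 399 TPM in controls, 181 to 280 TPM in GFP-negative cells) and Ccl9 were lower as deposited, and their calls were lost after rescaling (adjusted p = 0.608 and 0.76).

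Cytokine genes were expressed at low level. Of 17 tested, 7 rose and 3 fell (8 and 1 after rescaling). Csf1, the growth factor of microglia, went from 7.71, 5.07 and 11.5 TPM to 34.5, 46.8 and 46.8 TPM (log2 difference 2.31, adjusted p = 0.000187). Il1b went from 2.71, 7.43 and 5.14 TPM to 32.6, 27.1 and 19.9 TPM (2.23, adjusted p = 0.00439), and its antagonist Il1rn rose by 2.16. Tnf was at 5.61 to 8.33 TPM and 15.8 to 17.6 TPM, a rise by 1.13 (adjusted p = 0.00529). Il6 moved the other way, from 11.6, 14.4 and 23.1 TPM to 3.74, 3.37 and 3.87 TPM, and its call held after rescaling (adjusted p = 0.0129). Il27 rose by 2.18, while Il12a, Il10 and Il23a were listed at 0 in all 6 libraries. So the groups did not overlap for these named genes, in either direction.

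Among 32 cytokine receptors and signal carriers 6 rose and 11 fell, and 6 and 2 after rescaling. Il2rg, the common gamma chain, went from 21.5, 18.9 and 24.4 TPM to 405, 309 and 312 TPM (log2 difference 3.92, adjusted p = 7.33e-08). Il12rb1 was listed at 0 in controls and stood at 7.12, 7.01 and 8.31 TPM. Stat2 rose by 1.84. Ifngr1, the ligand-binding chain of the interferon-gamma receptor, fell from 1575, 1490 and 1482 TPM to 803, 784 and 721 TPM as deposited (-0.98, adjusted p = 2.44e-05), but not after rescaling (-0.44, adjusted p = 0.112). Il17ra fell on both scales, from 216, 209 and 183 TPM to 23, 90.1 and 69.0 TPM (-1.92, adjusted p = 0.00678).

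Of 17 complement genes tested, 8 rose and 3 fell (10 and 2 after rescaling). Cfb, of the alternative pathway, went from 1.84, 0 and 0 TPM to 197, 208 and 224 TPM (log2 difference 7.21, SE 0.34, adjusted p = 4.05e-07). C4b, of the classical pathway, went from 5.24, 3.41 and 1.57 TPM to 230, 518 and 465 TPM (6.53, SE 0.35, adjusted p = 8.51e-07). C2 and Serping1, the inhibitor of the C1 complex, were listed at 0 in controls and stood at 28.7, 26.3 and 32.5 TPM and at 14.3, 11.5 and 25.3 TPM. These 4 genes were at 5.24 TPM or less in every control, and no groups overlapped. C3, on which the pathways converge, went from 2.7, 2.76 and 0.71 TPM to 23.5, 105 and 88.3 TPM (4.42, adjusted p = 0.000207). The C1q genes, already abundant in controls, moved far less: C1qa was at 8420 to 9065 TPM and 9668 to 12965 TPM. C1qc varied within each group more than between them, at 1358, 3376 and 5305 TPM in controls and 1081, 3365 and 5219 TPM in GFP-negative cells. The C5a receptor gene C5ar2 fell by 1.18 (adjusted p = 0.000759).

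Phagocytic receptors and innate sensors were called in both directions. Of 17 Fc and phagocytic receptors 5 rose and 4 fell (7 and 2 after rescaling). The 4 falls are a share near the 24.5% of all tested genes that fell as deposited. Cd300lf, a lipid-binding inhibitory receptor, went from 6.88, 3.63 and 8.91 TPM to 145, 158 and 175 TPM (log2 difference 4.49, adjusted p = 9.63e-07). Fcgr4, an activating IgG receptor, rose by 2.99 (adjusted p = 1.37e-06) and the inhibitory receptor Fcgr2b by 0.79. Cd36, a scavenger receptor for oxidised lipid, went from 1.23, 0 and 2.44 TPM to 47.6, 63.6 and 60.3 TPM, and Axl, a receptor for apoptotic cells, from 42.7 to 54.5 TPM to 97.3, 295 and 305 TPM. Stab1 fell by 1.95 (adjusted p = 2.67e-05). Of 24 innate sensor genes 4 rose and 8 fell as deposited, and 5 rose and 2 fell after rescaling. Cd14, the co-receptor for lipopolysaccharide, fell from 757, 803 and 835.5 TPM to 322, 318 and 292 TPM (-1.36, adjusted p = 9.41e-06), and Tlr5, the flagellin receptor, from 11.5, 11.6 and 12.3 TPM to 0.29, 0.6 and 0.19 TPM (-3.24, adjusted p = 3.08e-05). Tlr2 and Casp4 rose by 0.87 and 1.26. Casp8 and Sting1 fell by 0.96 and 0.64, calls lost after rescaling (adjusted p = 0.123 and 0.753).

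Costimulatory and checkpoint genes were called in both directions: of 18, 9 rose and 4 fell (11 and 1 after rescaling). Here too the share that fell was near the 24.5% of all tested genes. Slamf8 rose by 1.70, Lag3 from 484, 454 and 475 TPM to 1084, 990 and 1143 TPM (1.18, adjusted p = 7.37e-06) and Cd244a by 2.42. Slamf7 went from 0.21 TPM or less to 11.9 to 18.0 TPM. Lilrb4a, an inhibitory receptor, rose by 2.67 and was higher again in GFP-positive cells, by 1.76 (adjusted p = 0.0113). Vsir, the checkpoint VISTA, fell by 1.32 (adjusted p = 7.75e-06) from 1635 to 1800 TPM. Of 19 NF-kB factors and targets, 4 rose and 2 fell as deposited, and 10 rose and 0 fell after rescaling. Cd40, the receptor for T cell help, went from 1.19, 0 and 0 TPM to 20.3, 31.0 and 15.4 TPM, and Cd83 rose by 1.02 (adjusted p = 7.92e-05). Nfkb1 and Nfkbie fell by 0.64 and 0.73, calls lost after rescaling (adjusted p = 0.701 and 0.527) and without some of the libraries.

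**Figure D4:**
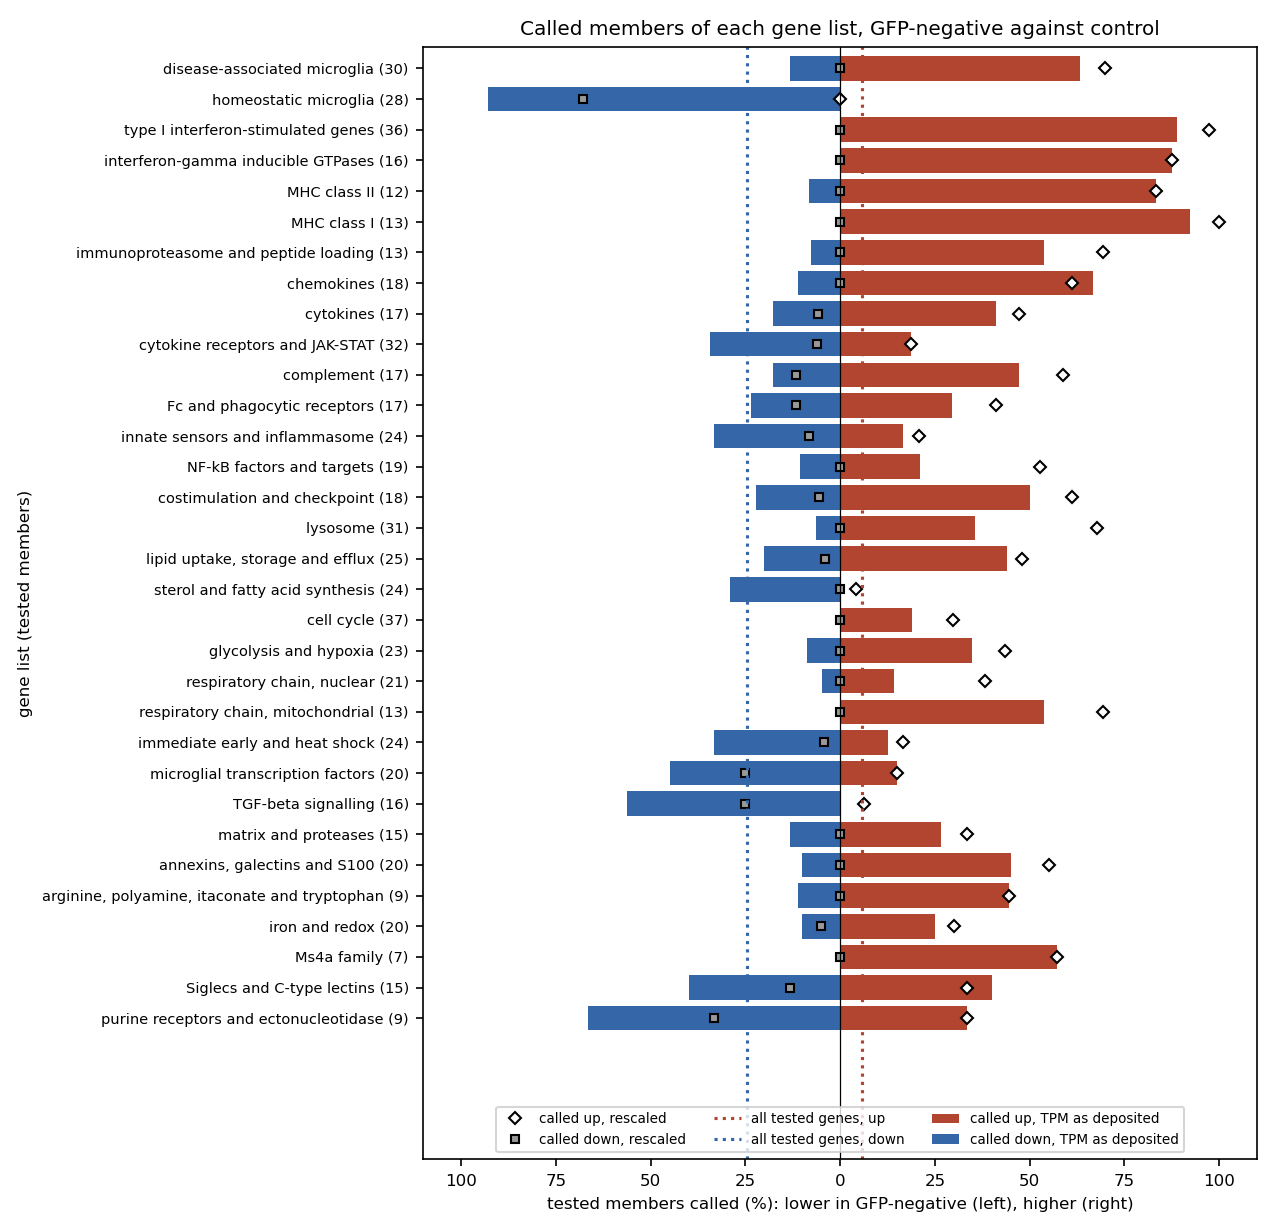
Percent of the tested members of each of 32 gene lists that rose (right) or fell (left) in GFP-negative against control microglia; bars are TPM as deposited, diamonds and squares the same after rescaling, and dotted lines the share of all tested genes (5.88% rose, 24.5% fell). Interferon genes and GTPases stand far right, and homeostatic genes far left, with 26 of 28 falling as deposited.

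Part of the disease-associated genes rose in these cells sorted for lack of reporter signal. Spp1 (5:104435118-104441050, plus strand), the gene behind the gate, was at 35.6, 16.1 and 57.4 TPM in controls, 107, 61.6 and 130 TPM in GFP-negative cells and 859, 1020 and 1029 TPM in GFP-positive cells. The lowest GFP-negative value lay just above the highest control. The rise by 1.53 (SE 0.39, adjusted p = 0.0174) was lost without GFP-negative library 3 (adjusted p = 0.0511) and with only the 2 groups in the fit (adjusted p = 0.0519). Of the 30 disease-associated genes, 19 rose and 4 fell, with a median log2 difference of 1.36. After rescaling 21 rose and 0 fell, and without GFP-negative library 1 the counts were 20 and 5. Apoe (7:19696109-19699188, minus strand), the lipid carrier, went from 3689, 4112 and 4621 TPM to 47156, 28713 and 43561 TPM, a log2 difference of 3.24 (SE 0.16, adjusted p = 5.07e-07). Cst7 (2:150570415-150578944, plus strand), an inhibitor of cathepsins, went from 25.1, 23.4 and 27.4 TPM to 996, 705 and 923 TPM, and Lgals3bp, a galectin-binding glycoprotein, from 195, 191 and 183.5 TPM to 2172, 2000 and 2125 TPM. None of these groups came near each other: the log2 differences were 5.04 (SE 0.14, adjusted p = 6.16e-09) and 3.46 (SE 0.08, adjusted p = 2.85e-09). Clec7a, the beta-glucan receptor Dectin-1, went from 53.2, 53.7 and 55.3 TPM to 212, 216 and 204 TPM (1.94, adjusted p = 7.75e-07). Fabp5, a fatty acid carrier, rose by 3.16 and Gpnmb, a lysosomal glycoprotein, was listed at 0 in controls and at 17.2, 14.1 and 30.7 TPM in GFP-negative cells.

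Several of these genes were higher again in GFP-positive cells. Between GFP-positive and GFP-negative cells 93 genes were called (0.688%), 34 higher (0.252%) and 59 lower (0.437%) in GFP-positive cells. Apoe was higher there by 0.93 (adjusted p = 0.0315), Cst7 by 0.99 (adjusted p = 0.0108), Clec7a by 1.16 (adjusted p = 0.00134), Fabp5 by 1.55 (adjusted p = 0.00544) and Gpnmb by 2.83 (adjusted p = 0.00169). Both comparisons use the GFP-negative libraries, so their values are not independent. Lpl, lipoprotein lipase, was not called different between control (43.5, 70.4 and 69.0 TPM) and GFP-negative cells (67.6, 49.9 and 59.8 TPM; adjusted p = 0.936) and had a mean of 244 TPM in GFP-positive cells, higher by 2.04 (adjusted p = 0.00169). Igf1, a growth factor for myelin-forming cells, stood at 1.51 to 4.15 TPM in controls, 7.49 to 9.82 TPM in GFP-negative cells and a mean of 60.7 TPM in GFP-positive cells. Trem2 was at 2021 to 2140 TPM in controls and 1517 to 1758 TPM in GFP-negative cells, a difference of -0.35 as deposited and +0.20 after rescaling (adjusted p = 0.535), and its adaptor Tyrobp was not called. The summed marker lists did not move one way: the monocyte list was at 79.6 to 166 TPM in GFP-negative and 129 to 151 TPM in GFP-positive cells, the border macrophage list at 140 to 199 and 200 to 247 TPM, and the dendritic cell list at 67.8 to 151 and 42.8 to 82.0 TPM. Chosen after their values were seen, Plac8, S100a4, Mgl2, Clec10a and Cd209a rose in GFP-negative cells and had lower means in GFP-positive cells. They belong to the monocyte, dendritic or border macrophage lists, and those means were 3.17, 0.727, 0.277, 0.0767 and 0 TPM. Fn1, on the monocyte list too, also rose in GFP-negative cells but had a higher mean in GFP-positive cells. There it held most of the monocyte sum (values below). The rise of S100a4 was lost without control 1 or control 2 (adjusted p = 0.0503 and 0.0523).

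Of 25 genes of lipid uptake, storage and efflux, 11 rose and 5 fell (12 and 1 after rescaling). The 5 falls are a share near the 24.5% of all tested genes that fell as deposited. Apoc1, an apolipoprotein of the Apoe cluster, was listed at 0 in controls and stood at 53.7, 48.4 and 58.7 TPM (adjusted p = 4.73e-08). Apoc2, the cofactor of lipoprotein lipase, rose by 3.53 (adjusted p = 3.84e-05). Ch25h, which makes 25-hydroxycholesterol, went from 5.44 to 14.1 TPM to 59.8 to 99.1 TPM and is also on the disease-associated list. Of 31 lysosomal genes 11 rose and 2 fell as deposited and 21 rose and 0 fell after rescaling. Npc2, a cholesterol carrier, rose by 0.97, the cathepsins Ctsb and Ctsz by 1.17 and 0.76, and Psap, the saposin precursor, was at 1140 to 1413 TPM in controls and 6261, 2874 and 3665 TPM in GFP-negative cells. Of 24 sterol and fatty acid synthesis genes, 0 rose and 7 fell, a share near the 24.5% of all genes that fell; 4 fell without GFP-negative library 1, and 0 fell after rescaling. The synthesis enzymes Fdft1 and Msmo1 were lower by 1.18 and 1.04 as deposited, with adjusted p = 0.0841 and 0.104 after rescaling.

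The homeostatic genes fell as a group. Of 28 tested, 26 fell and 0 rose as deposited, 19 fell and 0 rose after rescaling, and the median log2 difference was -1.31 (-0.78 after rescaling). P2ry12 (3:59216272-59262871, minus strand), the ADP receptor that steers processes to injury, was at 7412, 6986 and 7130 TPM in controls and 1939, 1899 and 1866 TPM in GFP-negative cells. Fcrls, an Fc receptor-like protein, was at 2335, 2210 and 2276 TPM and 538, 587 and 557 TPM. Tmem119 (5:113793729-113800516, minus strand), a surface protein used to tell microglia from other macrophages, was at 4723, 4457 and 4601 TPM and 1760, 2180 and 1967 TPM. The groups did not overlap for any of these. The log2 differences were -1.92 (SE 0.07, adjusted p = 8.39e-08), -2.02 (SE 0.08, adjusted p = 9.35e-08) and -1.23 (SE 0.10, adjusted p = 1.34e-05). All 3 calls held after rescaling, where the differences were -1.37, -1.48 and -0.68.

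Selplg, the ligand of P-selectin, fell by 1.52 and the lysophosphatidylserine receptor Gpr34 by 1.54, both with an adjusted p of 9.89e-07. Cx3cr1, the fractalkine receptor, was at 3097, 3103 and 3360 TPM in controls and 1124, 1434 and 1473 TPM in GFP-negative cells (adjusted p = 5.12e-05). For some abundant genes the fall depended on the scale. The calls of Cst3, Siglech and Csf1r were lost after rescaling (adjusted p = 0.103, 0.195 and 0.213). Csf1r, the receptor for Csf1, also leaned on GFP-negative library 1, at 2366 TPM against 4989 and 4533 TPM in libraries 2 and 3 and 6807 to 7477 TPM in controls, and its difference went from -0.90 to -0.57 without that library. Sall1, the microglial identity factor, went from -1.22 to -0.81 in the same way, and both remained called. Bin1 and Crybb1 were not called. P2ry12, Tmem119, Selplg and Siglech were lower again in GFP-positive than in GFP-negative cells, by 0.95, 1.02, 0.97 and 0.94 (adjusted p = 0.00126, 0.00165, 0.00134 and 0.00165), whereas for Fcrls (adjusted p = 0.301) and Cx3cr1 (adjusted p = 0.847) no further difference was called.

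Transcripts of several TGF-beta signalling genes were lower. Of 16 genes 9 fell and 0 rose as deposited, and 4 fell and 1 rose after rescaling. Tgfbr1, the type I receptor, was at 513, 534 and 455 TPM in controls and 54.6, 238 and 139 TPM in GFP-negative cells (-2.03, adjusted p = 0.00743), with the lowest value in library 1. Eng, a co-receptor, fell by 1.35 (adjusted p = 0.000326), the target gene Pmepa1 by 1.40 and the signal carrier Smad3 by 1.47, whose call was lost without control 2 (adjusted p = 0.0507). Nrros, which activates TGF-beta on microglia, and Smad2 were lower by 0.58 and 1.02 as deposited but were not called after rescaling. Of 20 transcription factors of microglia 3 rose and 9 fell as deposited, and 3 rose and 5 fell after rescaling. Maf, Mef2a and Irf5 fell on both scales, by 1.42, 1.24 and 1.27, while Mef2c, at -1.0, lost its call (adjusted p = 0.148). Spi1 and Irf8, core factors of the lineage, were not called (142 to 241 and 433 to 460 TPM in controls, 73.2 to 170 and 299 to 418 TPM in GFP-negative cells).

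Of 9 purine receptor and ectonucleotidase genes 3 rose and 6 fell as deposited, and 3 rose and 3 fell after rescaling. Adora1, an inhibitory adenosine receptor, went from 0.83, 1.49 and 1.14 TPM to 23.6, 51.0 and 44.5 TPM (log2 difference 4.18, adjusted p = 6.34e-06). P2ry14, the receptor for UDP-glucose, rose by 3.47 and P2rx4, an ATP-gated channel, by 0.71. P2ry13 and the ectonucleotidase Entpd1, which degrades ATP and ADP, fell by 1.46 and 1.28 on the scale as deposited and were also called after rescaling.

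Smaller groups of genes were mixed. Of 23 glycolysis and hypoxia genes 8 rose and 2 fell (10 and 0 after rescaling), among them Pgk1, Aldoa, Gpi1 and Pkm, which rose by 0.89, 0.64, 0.71 and 0.86. Of 37 cell cycle genes 7 rose and 0 fell (11 and 0 after rescaling). Cdk1, the mitotic kinase, went from 8.41, 7.27 and 13.1 TPM to 24.3, 35.6 and 30.4 TPM (1.58, adjusted p = 0.00143), while the proliferation marker Mki67 stayed at or below 2.15 TPM and was not called. Of 13 mitochondrially encoded respiratory genes 7 rose and 0 fell, with mt-Co1 rising by 1.10, and of 21 nuclear ones 3 rose and 1 fell. The nuclear counts were 8 and 0 after rescaling and 2 and 3 without GFP-negative library 1. Of 24 immediate early and heat shock genes, which respond to tissue handling, 3 rose and 8 fell as deposited, and 4 rose and 1 fell after rescaling. Egr1 was at 2.27, 6.85 and 7.87 TPM in controls and 15.2, 19.6 and 24.5 TPM in GFP-negative cells, and Btg2 fell by 1.18. For Hspa8 the direction depended on the scale, at -0.39 as deposited and +0.15 after rescaling (adjusted p = 0.592). The part of sample handling in the results was not tested.

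Genes of iron handling and effector enzymes were called in both directions. Of 20 iron and redox genes 5 rose and 2 fell (6 and 1 after rescaling). The 2 falls are a smaller share than the 24.5% of all tested genes that fell as deposited. Cybb, the catalytic subunit of the phagocyte NADPH oxidase, went from 4.95, 5.89 and 5.38 TPM to 47.5, 72.7 and 65.8 TPM (3.28, adjusted p = 1.94e-06) and was higher again in GFP-positive cells by 1.29 (adjusted p = 0.0186). The ferritin chains Fth1 and Ftl1 rose by 1.04 and 1.10. Slc40a1, ferroportin, the only known cellular iron exporter, fell from 194, 165 and 136 TPM to 15.7, 59.8 and 55.8 TPM (-2.09, adjusted p = 0.0054). Acod1, which makes itaconate, was listed at 0 in controls and stood at 28.2, 12.3 and 14.2 TPM. Ass1, which makes argininosuccinate, rose by 2.49, and Nos2 was listed at 0 in all 6 libraries. Of 20 annexin, galectin and S100 genes 9 rose and 2 fell (11 and 0 after rescaling), among them Lgals3, a galectin on the disease-associated list too, by 2.42 and Anxa5 by 1.28. Of 15 matrix genes 4 rose and 2 fell (5 and 0 after rescaling). Fn1, fibronectin, also a marker of monocyte-derived cells, went from 1.18, 0.15 and 0.72 TPM to 11.1, 18.5 and 13.3 TPM, with a mean of 87.3 TPM in GFP-positive cells. Of 7 Ms4a genes 4 rose and 0 fell, with Ms4a4c going from 2.28 to 7.71 TPM to 43.5 to 94.7 TPM. Of 15 Siglecs and C-type lectins 6 rose and 6 fell as deposited, and 5 rose and 2 fell after rescaling. Clec4a2 and Siglece, both inhibitory, fell by 2.06 and 1.82, and Siglecf rose by 0.90.

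The genes with the 12 largest falls had low to moderate levels in controls. Gpr165 (X:96713441-96719388, plus strand), a G protein-coupled receptor, led them, from 45.7, 62.1 and 38.9 TPM to 0.08, 2.14 and 1.16 TPM (-4.66, SE 0.42, adjusted p = 4.2e-05). Gp9, a platelet glycoprotein, went from 65.4, 70.0 and 69.1 TPM to 5.73, 5.6 and 5.64 TPM (-3.38, adjusted p = 0.000154). Neither group came close to the other. Klhdc8b, Sema4b, Rac3 and Bank1 followed at -3.35, -3.27, -3.22 and -3.19, then Cask, Nid2, Tmem204 and Arhgef10l at -3.19, -3.17, -3.11 and -3.04. These, with Tlr5, were called on both scales. Fam177a2 was at 9.92 to 14.8 TPM in controls and 3.52, 0 and 0 TPM in GFP-negative cells, and its call was lost after rescaling (adjusted p = 0.071), without control 1 or 3 and without GFP-negative library 3 (adjusted p = 0.0549, 0.0522 and 0.0509). Among the 12 largest rises not yet described was Ifi211, of the interferon-induced PYHIN family, from 0, 0 and 0.83 TPM to 95.3, 74.2 and 83.2 TPM (adjusted p = 1.8e-07). Fscn1, chosen after its values were seen, an actin bundler on the dendritic cell list, was at 200 to 210 TPM in controls and 15.5 to 46.7 TPM in GFP-negative cells.

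The cuprizone and glioma models of the series allowed a test of whether the response differed. Both comparisons were again of GFP-negative Spp1-GFP heterozygous microglia against WT: a cuprizone diet of 5 weeks, a toxic demyelination (3 against 4 libraries), and the CT2a glioma 21 days after inoculation (4 against 4). Each table has its own controls and was normalised on its own, so the test was of the difference between the 2 log2 differences, in limma over the genes tested in both tables. The EAE response lay above the cuprizone response in 372 of 12307 genes (3.02%) and below it in 1128 (9.17%). It lay above the glioma response in 177 of 13145 genes (1.35%) and below it in 744 (5.66%). All counts between models, also those by list below, are on the TPM as deposited. After rescaling 737 genes differed from cuprizone and 837 from glioma, and the lists were not recounted.

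Against cuprizone, the EAE difference was above that of cuprizone in 29 of 35 type I interferon genes, 10 of 14 GTPases, 11 of 12 class I and 8 of 12 class II genes, and below it in 0 of them. H2-Aa had the largest gap, 10.41 (SE 1.05, adjusted p = 2.19e-06). In the cuprizone table it was at a mean of 165 ± 51.4 TPM in controls (SD, n = 4) and 49.1 ± 39.8 TPM in GFP-negative cells (SD, n = 3), so the control level was higher than in EAE and the change, at -2.05, was not called (adjusted p = 0.149, limma). C4b and Cfb differed by 7.39 and 6.70. Apoe had differed by 0.66 in cuprizone, 2.58 less than in EAE (adjusted p = 1.74e-07), and Cst7 by 1.51, 3.54 less (adjusted p = 0.000178). Neither was called in cuprizone itself (adjusted p = 0.0556 and 0.289, limma). For Lpl the EAE difference was the lower one, by 2.37 (adjusted p = 0.0148). Lpl stood at 2.35 in cuprizone, from 23.1 to 94.6 TPM in the mean, which was not called (adjusted p = 0.0927, limma). Clec7a (adjusted p = 0.516) and Csf1 (adjusted p = 0.443) were not called different, with 0.47 and 0.48 more in EAE. The homeostatic genes lay below cuprizone in 21 of 28 and above in 0. P2ry12, at -0.27 and not called in cuprizone (adjusted p = 0.589, limma), was lower in EAE by 1.64 (adjusted p = 6.91e-07).

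Against glioma the order differed by list. Of 36 type I interferon genes the EAE difference was below that of glioma in 23 and above in 0, with a median gap of -1.24. Isg15 differed by 5.96 in glioma and by 3.49 in EAE (gap -2.47, adjusted p = 0.000165) and Irf7 by 5.76 and 3.57 (gap -2.19, adjusted p = 0.000284). For class I genes 1 of 13 was below and 0 above, and the gap of H2-K1 was 0.39 (SE 0.13, adjusted p = 0.083). Class II genes divided: H2-Aa, H2-Ab1, H2-Eb1, Cd74 and Ctss were above, while H2-DMa, H2-DMb1, H2-DMb2 and Ifi30 were below. The gap of H2-Aa was 4.42 (adjusted p = 0.00622). The control levels also differed: glioma controls had a mean of 379 ± 217 TPM (SD, n = 4) and EAE controls 14.1 ± 21.1 TPM (SD, n = 3). Of 28 homeostatic genes 0 were called different in this limma fit, with a median gap of 0.58 (P2ry12 0.63, SE 0.43, adjusted p = 0.449).

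The lists below glioma included 7 of 7 Ms4a genes, 12 of 37 cell cycle genes, 11 of 23 glycolysis and hypoxia genes and 8 of 17 cytokines, with 0 above in each. Ms4a7 differed by 5.61 in glioma, 3.38 more than in EAE (adjusted p = 0.00156), and Mki67 by 2.7 against 0.45 (adjusted p = 0.00236). Lysosomal genes were the reverse, with 7 of 31 above and 1 below. Ctsd, the aspartic cathepsin, was at -1.11 in glioma and 0.40 in EAE (gap 1.51, adjusted p = 0.0086). Of the disease-associated genes 5 were above and 5 below of 30 in glioma, and 12 above and 7 below in cuprizone. Of 10 monocyte markers the EAE difference was below glioma in 3, and of 7 it was above cuprizone in 4. Chosen after its values were seen, the monocyte gene Ly6c2, not called in EAE, differed by 8.90 in glioma (gap -7.02, adjusted p = 0.000177, limma), from a mean of 0.755 to 905.5 TPM. The part of those cells in the gaps was not tested.

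**Figure D5:**
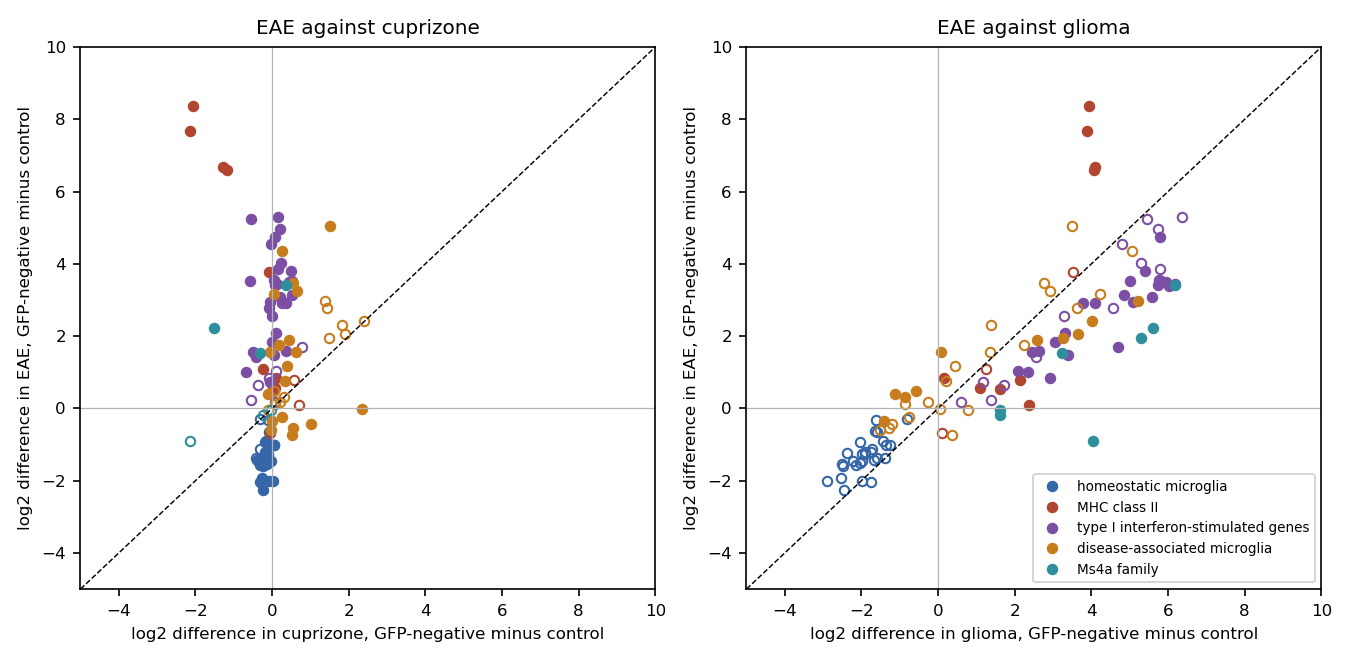
Log2 difference between GFP-negative and control microglia in EAE against cuprizone (left) and glioma (right) for 5 gene lists (homeostatic, MHC class II, type I interferon, disease-associated, Ms4a); filled points are genes whose difference between models was called, open points are not, and the dashed line marks equal differences. Interferon genes lie near 0 in cuprizone with 29 of 35 called, and mostly further along the glioma axis, with 23 of 36 called.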

How the data were processed

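RNA of sorted microglia was read by a modified SMART-Seq2 protocol, per the labels' protocols. The deposited values are TPM per gene symbol. Per the submitters' processing notes the tools used across the series include cutadapt 2.10, STAR 2.7.5c and RSEM 1.3.3, with build GRCm38; the sources used here do not say which of them made the TPM tables. TPM holds no read counts, so the depth of each library is unknown and no counting interval is given. Genes reaching 1 TPM in at least 3 columns were tested on log2(TPM + 1), pseudocount 1, with limma 3.58.1 (R 4.3.3), a trend, all 3 EAE groups in the fit and Benjamini-Hochberg adjustment at 0.05. Log2 differences on this scale understate changes of low genes. The fit was tested on simulated data. Gene members and lists were chosen with earlier results of these data known. Named genes are Spp1, 8 microglial markers, the 12 largest rises and falls with no overlap and a mean of at least 10 TPM, up to 6 per list by adjusted p, and, among genes that meet the same criteria in EAE (called, no overlap, 10 TPM), the 6 largest differences in each direction from cuprizone and from glioma; other list members are given as values. Some genes that the rule names are not reported here. Alternatives were rescaling, other filters and pseudocounts, no trend, a replicate block, no mitochondrial genes, and leaving out each library. Single-cell pools were not analysed here.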

Additional observations from a re-analysis of the deposited data

Results flagged for a closer look

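For 23 results, among genes called without overlap and at 10 TPM or more in EAE, the EAE response differed from that of another model by a limma test of the difference itself; values are the EAE log2 difference minus the other, with each table on its own controls.

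Above cuprizone stood the class II genes H2-Aa by 10.41 (adjusted p = 2.19e-06), H2-Eb1 by 9.83 (adjusted p = 5.68e-07), H2-Ab1 by 7.96 (adjusted p = 9.88e-08) and Cd74 by 7.76 (adjusted p = 3.84e-09). Iigp1, an immunity-related GTPase, was listed at 0 in the EAE controls, so its 8.09 (adjusted p = 4.25e-06) depends on the pseudocount. Ifi211 stood above by 7.5 (adjusted p = 3.84e-08). The response of Gpr165 lay below by -3.75 (adjusted p = 0.00504), that of Tlr5 by -3.24 (adjusted p = 0.000694) and that of Cask, a scaffold kinase, by -3.19 (adjusted p = 6.92e-05). Dennd2c, a Rab exchange factor, was at -2.39 in EAE and at 1.06 in cuprizone, where it was not called (adjusted p = 0.502, limma). The difference was -3.45 (adjusted p = 0.000182). Nr1d1, the clock repressor REV-ERB alpha, differed by -3.34 (adjusted p = 0.000363) and St8sia6, a sialyltransferase that caps glycans, by -3.30 (adjusted p = 0.0013).

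Above glioma stood H2-Aa by 4.42 (adjusted p = 0.00622) and H2-Eb1 by 3.79 (adjusted p = 0.00684), beside higher control levels in the glioma table. Actr3b, an actin-branching subunit, was at 3.28 in EAE and 0.12 in glioma, a difference of 3.16 (adjusted p = 0.0108). Apoc4 was listed at 0 in the EAE controls and differed by 2.82 (adjusted p = 0.0042). Slc39a4, a zinc importer, differed by 2.80 (adjusted p = 0.0129) and Chst2, a sulfotransferase, by 2.73 (adjusted p = 0.000502). Below glioma, Il1rn was at 2.16 in EAE and 7.43 in glioma, a difference of -5.28 (adjusted p = 0.000201). Ccr1, a chemokine receptor, fell in EAE and rose in glioma, -1.69 against 2.96 (difference -4.65, adjusted p = 0.000135). Ifi205, a PYHIN family gene, differed by -4.23 (adjusted p = 3.46e-05), S100a10, the annexin A2 partner, by -3.88 (adjusted p = 0.000159) and Ass1 by -3.86 (adjusted p = 0.00156).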

How the results depend on the processing

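As deposited 4099 genes were called (794 rising, 3305 falling) and after rescaling 1852 (1244 and 608), of which 784 rose and 608 fell both ways. With only the GFP-negative and control libraries in the fit 2493 were called, 1843 of them falling. Leaving out 1 library at a time gave 2103 to 4815 calls, 606 to 908 rising and 1497 to 4051 falling, with the lowest totals without control 2 (2103) and control 1 (2277). Rescaling without GFP-negative library 1, an alternative chosen after seeing the data, gave 2057 calls (1354 and 703). Under a filter of 5 TPM, no filter, no trend and pseudocounts of 0.1 and 0.5 the calls numbered 3964, 2890, 3656, 3773 and 3986, and 3793 without mitochondrial genes (207 of 215 named genes alike, 2 calls lost). The 1500 genes that differed from cuprizone became 737 after rescaling and 944 to 2144 without 1 library, the lowest without EAE control 2. The 921 that differed from glioma became 585 with only GFP-negative and control libraries and 588 to 1140 without 1 library, the lowest without EAE control 3. The cause of these shifts was not tested. With the replicate block 3917 genes were called (783 rising, 3134 falling). Over all tested genes, deviations of same-numbered libraries from their group means correlated at -0.056 to 0.056. Such values cannot decide whether equal numbers mark paired libraries, and the labels do not say. Of 215 named genes, 182 kept their direction and side of the threshold after rescaling and 30 lost the call; 3 reversed without being called: Pdia3 at 0.16, Ndufv1 at 0.037 and Hspa8 at 0.15 (Pdia3 0.047 and Hspa8 0.005 also without GFP-negative library 1). Leaving out a control cost 16 to 24 named genes their call and leaving out a GFP-negative library 5 to 13. TPM gives no depth, which limits what a value listed at 0 can show.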
